A study of Mus musculus with 16 samples.

Results

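Small nucleolar RNAs (snoRNAs) and small Cajal body RNAs (scaRNAs) were described in total RNA of mouse fetal cortex. The RNAs were all gene IDs whose symbol starts with Snord, Snora or Scarna and whose counts, summed over 16 libraries, reached at least 50. Of 55359 gene IDs, 113 carried such a symbol and 50 reached that sum: 33 of 70 Snord IDs (box C/D), 13 of 37 Snora IDs (box H/ACA) and 4 of 6 Scarna IDs (Cajal body). Classes follow the symbols: the ID of Snord43 is typed as a miRNA in the annotation and that of Scarna9 as a snoRNA. The RNAs were thus chosen by their summed counts, and their abundance is given as a description.

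Cortex was taken on gestational day 16 from fetuses of both sexes, and RNA sequencing libraries were made from its total RNA. The groups were offspring with an ethanol-exposed father (paternal), an ethanol-exposed mother (maternal), both parents exposed (dual) and control offspring of neither. Each exposure held 4 libraries, 2 male and 2 female, which gives 8 groups of 2. Strain, ethanol dose and the age of the parents are not given in the labels used here. Nor do they say whether the replicates of a group were separate fetuses, so a p-value here reflects only library-to-library spread, part of which may be technical.

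SnoRNAs guide chemical modification of other RNAs by base pairing. Box C/D RNAs, named for short sequence boxes near their ends, carry fibrillarin and direct 2'-O-methylation, mainly of ribosomal RNA. Box H/ACA RNAs end in an ACA box, carry dyskerin and direct pseudouridylation. ScaRNAs do the same for the spliceosomal small nuclear RNAs in Cajal bodies, and some snoRNAs are instead needed for cleavage of the ribosomal RNA precursor. In mammals most of these RNAs are cut from introns of a host gene, often one for a ribosomal protein or a ribosome assembly factor.

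The sequences below are those on which the results turn: the RNAs that passed a test (Snord17, Snord15a, Snord82, Snord49a, Snord49b and Scarna6), the box H/ACA RNA of highest summed count (Snora78), the box H/ACA RNA nearest the threshold with dual exposure (Snora23), and the abundant Snord104, which has no host gene in the annotation used. They are GENCODE M21 transcripts, 5' to 3', and all 50 RNAs had one. Capitals in Snord and Scarna RNAs mark a C box (ATGATGA or GTGATGA, starting within the first 30 bases) and a D box (CTGA, within the last 20 bases). Capitals in Snora RNAs mark ACA within the last 10 bases.
Snord17: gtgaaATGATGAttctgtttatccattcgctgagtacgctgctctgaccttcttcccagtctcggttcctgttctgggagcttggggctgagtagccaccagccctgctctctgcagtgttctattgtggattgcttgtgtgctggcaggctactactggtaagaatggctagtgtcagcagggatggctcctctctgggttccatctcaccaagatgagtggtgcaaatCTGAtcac
Snord15a: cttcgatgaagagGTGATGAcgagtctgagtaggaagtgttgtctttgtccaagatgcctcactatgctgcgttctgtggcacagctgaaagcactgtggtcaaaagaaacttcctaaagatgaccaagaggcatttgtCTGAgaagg
Snord82: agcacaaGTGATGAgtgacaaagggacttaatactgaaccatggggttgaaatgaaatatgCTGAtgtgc
Snord49a: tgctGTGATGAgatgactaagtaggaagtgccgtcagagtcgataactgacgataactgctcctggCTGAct
Snord49b: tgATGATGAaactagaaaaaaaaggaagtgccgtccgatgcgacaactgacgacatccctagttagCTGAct
Snord104: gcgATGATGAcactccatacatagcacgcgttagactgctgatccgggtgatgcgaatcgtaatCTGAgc
Scarna6: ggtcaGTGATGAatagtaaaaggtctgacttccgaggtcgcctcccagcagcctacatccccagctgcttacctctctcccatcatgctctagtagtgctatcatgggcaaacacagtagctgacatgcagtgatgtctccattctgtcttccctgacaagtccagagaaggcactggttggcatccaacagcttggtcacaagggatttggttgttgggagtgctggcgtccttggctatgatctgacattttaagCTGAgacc
Snora78: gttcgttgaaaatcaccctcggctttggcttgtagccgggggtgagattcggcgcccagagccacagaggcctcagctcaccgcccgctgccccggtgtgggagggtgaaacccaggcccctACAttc
Snora23: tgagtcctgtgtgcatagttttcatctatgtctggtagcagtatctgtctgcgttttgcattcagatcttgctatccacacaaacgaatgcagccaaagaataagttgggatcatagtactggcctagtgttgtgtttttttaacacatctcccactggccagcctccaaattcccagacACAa

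The boxes were found on the RNA strand in 20 of the 33 Snord RNAs for C and D together, in 32 for the D box and in 21 for the C box. All 13 Snora RNAs held ACA in the window. Among all 141515 GENCODE M21 transcripts, 0.261% held both a C and a D box in these windows and 14.4% held ACA. Scarna2 had the D box and no C box within its first 30 bases. Snord RNAs were 65 to 238 bases long (median 81), Snora RNAs 128 to 184 bases (median 132) and Scarna RNAs 70 to 414 bases (median 172). Snord17 was the longest Snord. Snord49a and Snord49b, which share the host gene 2410006H16Rik with Snord65, matched in 54 of 78 aligned columns (69.2%), while each matched Snord65 in 56.3% and 56.4% of columns. Of the 50 RNAs, 36 lay within a protein-coding host, 7 within a host of another class and 7 within none (Scarna2, Scarna17, Snora17, Snora57, Snord104, Snord13 and Snord118). A host here is a GENCODE M21 gene on the same strand that contains the RNA. RNAs described as without a host have none in that annotation, which may lack the host of some of them.

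Which annotated RNAs had counts at all went with the overlap of their annotation with other genes. In GENCODE M21, 2 of the 50 RNAs (4%, Snora2b and Snord66) overlapped an exon of another gene. Of the 12 IDs with 1 to 49 counts, 5 did (41.7%). All 51 IDs with 0 counts overlapped such an exon, 48 of them on the same strand. Snord15a and Snord15b lie within the same host, Rps3, yet Snord15a had 1427 counts and Snord15b, which overlaps an exon, had 0. Of the 113 IDs with such a symbol, all 4 within Snhg12 and all 3 within Gas5 were below 50. A 0 in these tables therefore says that no read was assigned, not that the RNA was absent. Which annotation release was counted, and how overlapping genes were treated, is not stated in the labels used here. Just inside the limit of 50 were Snord70 (69 counts), Snord11 (66), Snord59a (64), Snora20 (63) and Snord66 (58), and just outside it Snord92 (47), Snord42b (46), Snora15 (45), Snord37 (37) and Snord123 (34).

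**Figure D1:**
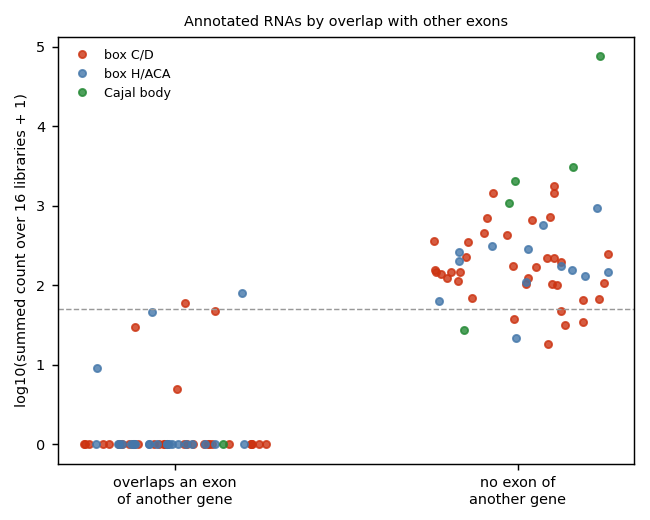
Summed count of each of the 113 annotated RNAs over 16 libraries, as log10 of the count plus 1, split by whether the RNA overlaps an exon of another gene in GENCODE M21; each point is 1 RNA, coloured by class, spread sideways at random, and the dashed line is at 50 counts. All 51 RNAs at 0 are on the left and 48 of the 50 RNAs above the line are on the right.

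The libraries held 15336566 to 19966696 counts in males and 26134287 to 35218456 in females, so sex and depth went together. All 7 neocortex markers examined (among them Emx1, Tbr1 and Neurod6) had counts in every library, at a summed 1427 to 1890 CPM (counts scaled to library size, with TMM evening out library composition). Meninges markers, all 6 of 6 above 0 in every library, summed to 147 to 257 CPM in dual and 53.6 to 337 CPM in control libraries. Erythroid markers (5 of 5 above 0 in every library) summed to 351 to 500.05 CPM in dual and 519 to 680 CPM in control libraries, without overlap. Gene models of the annotation classes TEC (not yet backed by experiments) and sense-intronic made up 0.872% and 0.860% of counts with dual exposure in females, 0.325% to 0.391% in females of the remaining groups and 0.280% to 0.534% in males. Libraries made from bulk tissue cannot tell fewer cells of a type from less RNA per cell, nor a mature snoRNA from a read of its unspliced host.

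1 RNA dominated the counts. Scarna2, which in human cells guides modification of the U2 spliceosomal RNA, took 69.2% to 82.2% of the counts of the 50 RNAs in each library. Per length, its median level over the libraries was 46.7 CPM per 100 bases. Scarna9 followed with 10.8, Snord104 with 5.38, Scarna17 with 3.02, Snord49b with 2.95, Snord15a with 2.50 and Snord49a with 2.43 CPM per 100 bases. The median RNA of each class was at 6.90 for Scarna, 0.516 for Snord and 0.321 CPM per 100 bases for Snora. These are levels in the counts. How recovery in the libraries depended on the length of an RNA was not tested, so they may not rank abundance in the tissue. Scarna2 also varied little, with a coefficient of variation of 7.81% over the 16 libraries, against 41.5% for Scarna6 and 37.8% for Snord17. The level of Scarna2 was 183 ± 22.8 CPM in dual, 200 ± 12.6 in paternal, 194 ± 7.35 in maternal and 188 ± 12.6 CPM in control libraries (SD, n = 4 each). These groups overlapped, and no comparison of Scarna2 between exposures passed the test.

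The box C/D class had its highest mean sum with dual exposure. Its 33 RNAs summed to 34.0 and 43.3 CPM in male dual and 43.2 and 35.9 CPM in female dual libraries, against 21.1 and 29.5 CPM in male control and 22.6 and 24.3 CPM in female control libraries. All 4 dual libraries lay above all 4 controls, a gap to which Snord17 and Snord15a, described below, contribute. The male paternal libraries held 39.0 and 33.8 CPM, overlapping the male dual ones, and the female paternal libraries 26.0 and 26.9 CPM. Maternal exposure gave 31.4 and 31.4 CPM in males and 22.5 and 22.5 CPM in females. Both single exposures were thus above their controls in males, and maternal exposure was below them in females. Mean sums were 39.1 ± 4.86 CPM with dual, 31.4 ± 6.14 with paternal, 26.9 ± 5.17 with maternal exposure and 24.4 ± 3.63 CPM in controls (SD, n = 4 each).

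Other features of the libraries moved with these sums. In males the lowest box C/D sum, in control replicate 1, came with 235 CPM of the mitochondrial ribosomal RNA mt-Rnr1 and 1.96% of counts on IDs without a symbol. The highest male sum, in dual replicate 2, came with 12342 CPM of mt-Rnr1 and 17.8% of counts on such IDs, and male paternal replicate 1 had 10577 CPM and 14.2%. In females both dual libraries stood apart for the nuclear RNA Malat1 (5672 and 5847 CPM, against 2704 to 3842 CPM in the other groups) and for mt-Rnr2 (268 and 226 CPM, against 8.77 to 128 CPM). The part of these features, and of the erythroid markers, in the levels of the snoRNAs and scaRNAs was not tested.

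Box H/ACA RNAs showed a smaller step. Their 13 RNAs summed to 8.96 and 10.7 CPM in male dual and 11.6 and 9.31 CPM in female dual libraries, against 6.71 and 5.87 CPM in male control and 7.21 and 9.84 CPM in female control libraries. Dual and control groups were apart in males and overlapped in females. Male maternal libraries were at 12.9 and 10.3 CPM, overlapping male dual ones, whereas the female maternal libraries were at 7.68 and 6.69 CPM. Mean sums were 10.2 ± 1.24 CPM with dual, 8.53 ± 1.16 with paternal, 9.40 ± 2.81 with maternal exposure and 7.41 ± 1.71 CPM in controls (SD, n = 4 each).

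Cajal body RNAs were summed with and without Scarna2, which holds most of their counts. The 4 RNAs together summed to 203 ± 24.0 CPM with dual exposure and 202 ± 11.8 CPM in controls (SD, n = 4 each). Without Scarna2, the other 3 summed to 17.5 and 20.2 CPM in male dual and 21.4 and 20.3 CPM in female dual libraries, against 14.7 and 15.7 CPM in male control and 12.3 and 14.6 CPM in female control libraries. This sum too had all dual libraries above all controls, as did Scarna6 alone, whereas Scarna9 and Scarna17 overlapped between the groups. Summed likewise, paternal libraries were at 21.4 and 18.03 CPM in males, overlapping the male dual ones, and at 12.6 and 16.3 CPM in females. Maternal ones were at 16.6 and 17.2 CPM in males and 11.1 and 11.8 CPM in females. Counts of Snord RNAs were 2.43 to 5.02 times those of Snora RNAs across the 16 libraries.

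**Figure D2:**
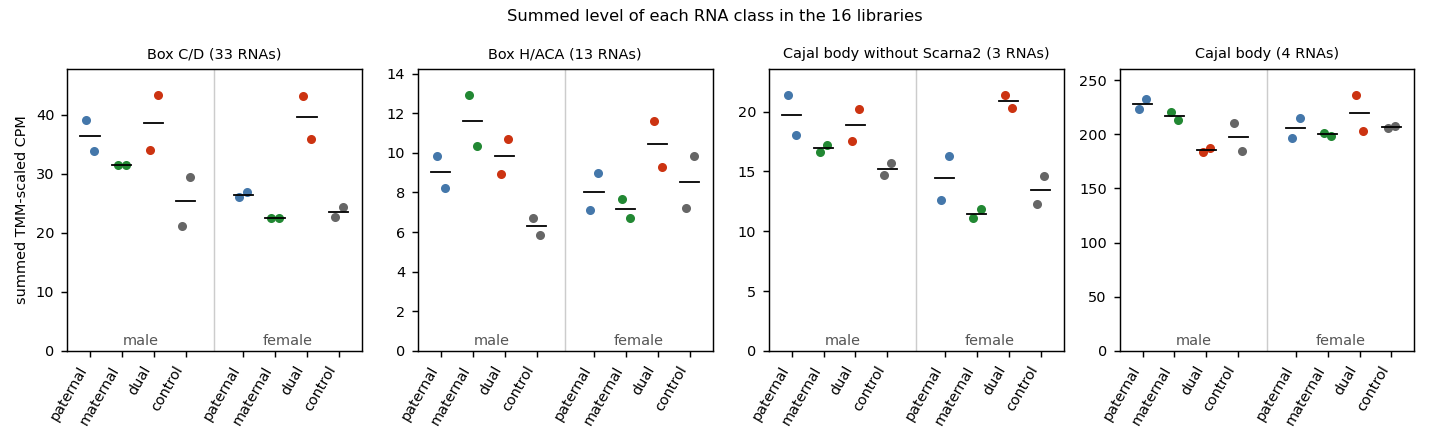
Summed TMM-scaled CPM of each class by group, males on the left and females on the right of each panel; points are single libraries and bars the mean of 2. Box C/D sums are 34.0 to 43.3 CPM in the 4 dual libraries and 21.1 to 29.5 CPM in the 4 controls, while the Cajal body panel, set by Scarna2, is near 200 CPM throughout.

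Of the 50 RNAs, 45 passed the filter on low counts and were tested with edgeR (29 Snord, 12 Snora and 4 Scarna). Snord11, Snord58b, Snord66, Snord70 and Snora20 were not tested. A filter on counts can pass an RNA through the group where it is high. The counts and medians below cover the tested RNAs alone, so they may lean toward such groups. How far they do was not tested. Fold changes are log2 ± standard error, the mean of the male and female differences unless a sex is named, and adjusted p-values are Benjamini-Hochberg values over 21543 genes.

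With dual exposure 3 of 45 RNAs rose and 0 fell, while 3.36% of all genes tested passed (2.72% higher). They were Snord17 and Snord15a, both box C/D RNAs, and Scarna6, a scaRNA with C and D boxes. All 3 are among the longer RNAs, at rank 3, 6 and 2 in length among the 45, and also among the more abundant, at rank 4, 6 and 3 in median CPM. No Snora passed, and in the class of 4 Scarna RNAs 1 passed. Of the 586 genes that rose, 94 were protein-coding, although 15009 of the 21543 genes tested were. Genes of other classes, to which these RNAs belong, thus rose more often than protein-coding ones. The shares of all genes here and below are therefore not a matched background for these RNAs. Whether the RNAs differed from other genes of those classes was not tested.

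Snord17, which lies in an intron of the sorting nexin gene Snx5, was at 7.10 and 6.81 CPM in male dual and 7.68 and 7.84 CPM in female dual libraries, against 2.95 and 4.20 CPM in male control and 3.02 and 3.47 CPM in female control libraries. The lowest dual library exceeded the highest control in both sexes. The means were 7.36 ± 0.484 CPM with dual exposure and 3.41 ± 0.576 CPM in controls (SD, n = 4 each), a log2 fold change of 1.11 ± 0.15 (edgeR quasi-likelihood test, adjusted p = 0.00107). Within females it was 1.26 ± 0.21 (edgeR adjusted p = 0.000918) and within males 0.97 ± 0.22, with an unadjusted p = 0.000486 that gave an edgeR adjusted p = 0.942, where 0% of all genes passed. Paternal libraries held 4.26 ± 0.988 CPM and maternal ones 3.97 ± 1.41 CPM (SD, n = 4 each), and neither difference from control passed. Its call held when any 1 library was left out.

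Scarna6, in an intron of the autophagy gene Atg16l1, was at 7.55 and 9.88 CPM in male dual and 7.36 and 8.13 CPM in female dual libraries, against 4.90 and 6.56 CPM in male control and 2.17 and 2.72 CPM in female control libraries. Again all dual libraries were higher, although the male and female controls were themselves apart. Dual libraries averaged 8.23 ± 1.15 CPM and controls 4.09 ± 2.03 CPM (SD, n = 4 each), with a log2 fold change of 1.13 ± 0.19 (edgeR adjusted p = 0.0034). The difference was 1.66 ± 0.26 in females (edgeR adjusted p = 0.000627) and 0.61 ± 0.26 in males (edgeR adjusted p = 0.942). Tested directly, the male minus female effect was -1.05 ± 0.37 and did not pass (edgeR adjusted p = 0.119). This call also held without any 1 library.

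Snord15a, in an intron of the ribosomal protein gene Rps3, was at 4.99 and 7.35 CPM in male dual and 5.34 and 5.95 CPM in female dual libraries, against 1.09 and 3.74 CPM in male control and 2.26 and 2.98 CPM in female control libraries. The groups did not overlap, but male control replicate 1 was far below the other controls. The log2 fold change was 1.24 ± 0.27 (edgeR adjusted p = 0.0166), with 1.37 ± 0.39 in males and 1.10 ± 0.36 in females. The call was lost without male control replicate 1 (0.91, adjusted p = 0.0687), male dual replicate 2 (1.09, adjusted p = 0.0631) or female dual replicate 2 (1.20, adjusted p = 0.0588). Paternal libraries were intermediate for Snord15a, with 4.26 ± 1.18 CPM, against 2.52 ± 1.13 CPM in controls (SD, n = 4 each), and that difference did not pass (0.74 ± 0.27, edgeR adjusted p = 0.51).

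In all, 7 of the 45 tested RNAs had every dual library above every control library, beside 3.07% of all genes tested, and 0 had every dual library below, beside 2.13%. The other 4 were Snora30, Snord118, Snord13 and Snord61, and none of them passed the test. Snord118, known as U8 and needed for maturation of the large ribosomal subunit RNAs, was at 1.34 and 1.76 CPM in male dual and 1.11 and 1.32 CPM in female dual libraries, against 0.809 and 0.576 CPM in male control and 0.845 and 0.492 CPM in female control libraries. Its log2 difference was 1.14 ± 0.60 in males and 0.86 ± 0.55 in females, and over both sexes the edgeR adjusted p was 0.186. Snord13, known as U13 and an 18S ribosomal RNA partner, was at 1.28 and 2.68 CPM in male dual and 1.37 and 0.998 CPM in female dual libraries, against 0.856 and 0.460 CPM in male control and 0.845 and 0.868 CPM in female control libraries. Both are made without a host gene.

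Across classes the tested RNAs leaned higher with dual exposure. The median log2 fold change was 0.57 over 29 Snord, 0.28 over 12 Snora and 0.34 over 4 Scarna RNAs, beside 0.00 over all genes tested and -0.04 over protein-coding genes. Positive values were found for 24 Snord, 8 Snora and 3 Scarna RNAs. Within males the median over all tested RNAs was 0.47 with dual, 0.41 with paternal and 0.42 with maternal exposure. All of these used the same male controls, so the lean in males was not particular to dual exposure. Within females the medians were 0.36, 0.08 and -0.16. Of the Snora RNAs, Snora23, which has Ipo7 as host, came closest to the threshold. It was at 1.09 and 1.76 CPM in male dual and 0.586 and 0.927 CPM in female dual libraries, against 0.619 and 0.460 CPM in male control and 0.241 and 0.347 CPM in female control libraries. Dual libraries were higher within each sex, and over both sexes the groups overlapped (1.36 ± 0.39, edgeR adjusted p = 0.0684). Among lower values, Snord43 had -0.59 ± 0.42 and Scarna2 -0.05 ± 0.06, and neither passed. Snord59a had 0 counts in both male dual libraries and 2 and 8 counts in the male controls, too few for a fold change.

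**Figure D3:**
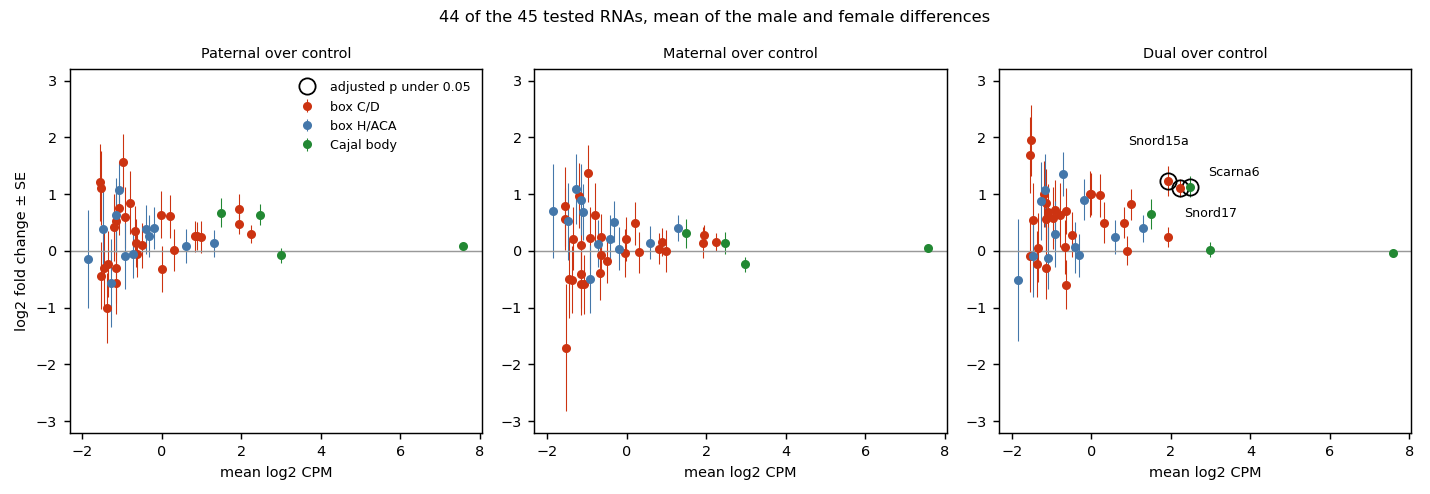
Log2 fold change against control (vertical axis, bars are standard errors) by mean log2 CPM (horizontal axis) for paternal, maternal and dual exposure; points are RNAs coloured by class, Snord59a is left out for its 0 counts, and rings mark an adjusted p under 0.05. The 3 ringed RNAs, Snord17, Scarna6 and Snord15a, are all in the dual panel, between 1.11 and 1.24, and are abundant next to the points with wide bars at the left.

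In females alone, 6 of 45 RNAs rose with dual exposure and 0 fell, where 15% of all genes passed (9.34% higher and 5.64% lower), so the RNAs' share of rises was near that of all genes. Beside Scarna6, Snord17 and Snord15a (edgeR adjusted p = 0.0472) these were Snord82, Snord49a and Snord49b. Snord82, from an intron of the nucleolin gene Ncl, had 2.28 and 1.46 CPM in dual females, against 0.664 and 0.232 CPM in control females, 2.06 ± 0.51 on the log2 scale (edgeR adjusted p = 0.0122). Female paternal and maternal libraries lay between, at 0.941 to 1.29 CPM. In males the dual libraries, at 0.512 and 1.53 CPM, lay around the controls at 0.999 and 1.15 CPM. The Snord82 call was lost without female control replicate 2 (1.48, adjusted p = 0.0716) or female dual replicate 1 (1.69, adjusted p = 0.095).

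Snord49a and Snord49b, related box C/D RNAs from 1 host, gave similar differences in females. Snord49a was at 2.60 and 2.42 CPM in female dual libraries, against 0.603 and 1.42 CPM in female controls, 1.31 ± 0.37 on the log2 scale (edgeR adjusted p = 0.0266). Snord49b was at 2.90 and 2.28 CPM in female dual libraries, against 0.875 and 1.42 CPM in female controls, 1.17 ± 0.38 (edgeR adjusted p = 0.0471). In males Snord49a was at 1.47 and 1.91 CPM with dual exposure, against 1.90 and 2.30 CPM in controls, and Snord49b at 2.11 and 3.75 CPM, against 1.52 and 2.70 CPM. Dual and control males overlapped for both. Leaving out female control replicate 1 ended both calls (0.82, adjusted p = 0.187 for Snord49a, and 0.86, adjusted p = 0.214 for Snord49b), as did leaving out female dual replicate 1 (1.24, adjusted p = 0.103, and 0.98, adjusted p = 0.207) or female dual replicate 2 (1.36, adjusted p = 0.0923, and 1.33, adjusted p = 0.0972). The calls of Snord49b and Snord15a lay close to the threshold and were lost in 9 and 13 of 16 omissions, while those of Scarna6 and Snord17 held in all 16.

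Within males 0 of 45 RNAs passed for dual exposure, and DESeq2 also called 0. An unadjusted edgeR p under 0.05 was found there for 8 of 45 RNAs, beside 1048 of 21543 genes tested. Whether the dual effect differed between the sexes was tested directly, and 0 RNAs passed, where 3.5% of all genes did (2.76% with the lower effect in males). Smallest p-values went to Snord49a (-1.62 ± 0.55, edgeR adjusted p = 0.106) and Snord82 (-2.16 ± 0.74, edgeR adjusted p = 0.112), as male minus female effect. In the opposite direction Snora57 was at 0.960 and 0.919 CPM in male dual libraries, against 0.666 and 0.288 CPM in male controls, and at 0.326 and 0.428 CPM in female dual libraries, against 0.694 and 0.926 CPM in female controls. It was thus higher in dual males and lower in dual females, with no overlap in either sex, and the difference of effects did not pass (2.04 ± 0.76, edgeR adjusted p = 0.141).

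**Figure D4:**
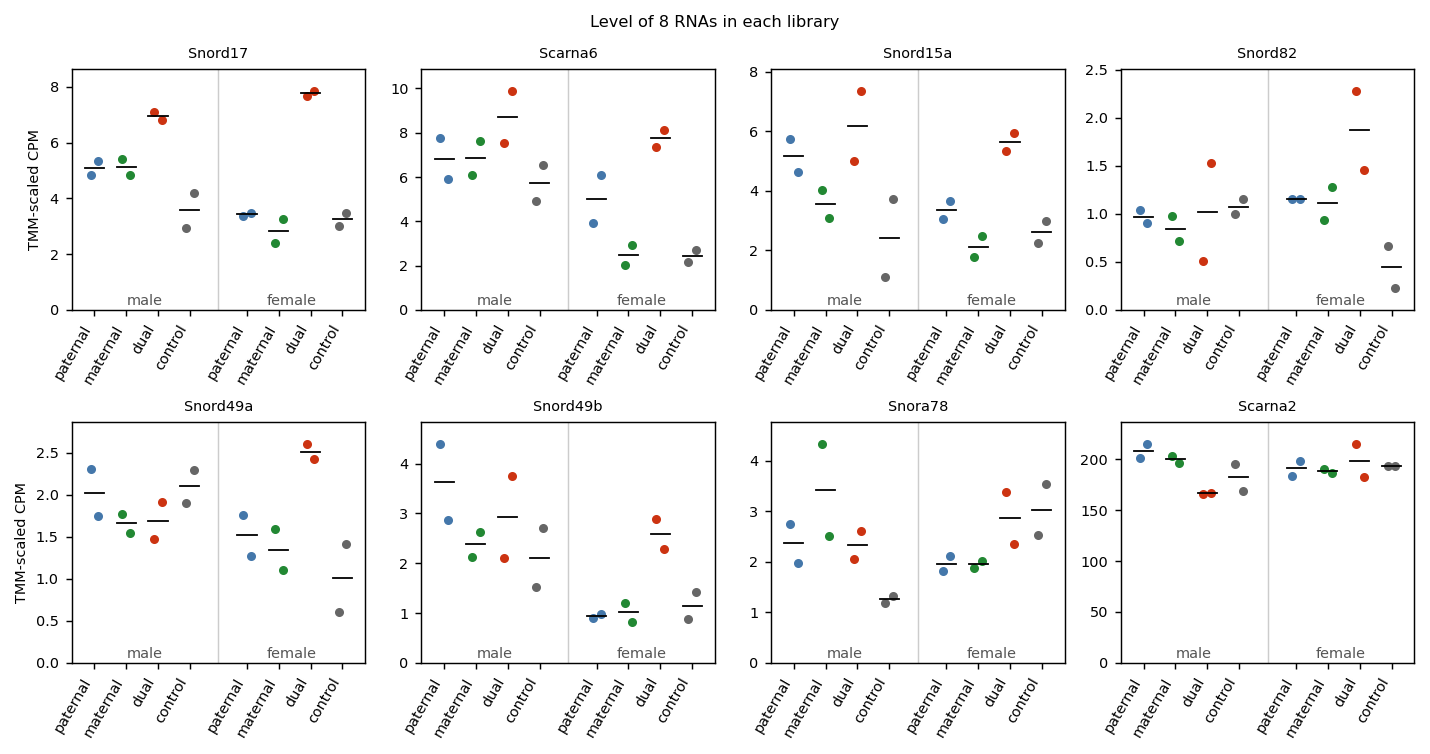
TMM-scaled CPM of 8 RNAs in every library by group, males left and females right; points are libraries and bars the mean of 2. Snord17, Scarna6 and Snord15a are higher in dual than in control libraries of both sexes, in females Snord82, Snord49a and Snord49b are also higher in both dual libraries than in both controls, and Scarna2 stays between 166 and 215 CPM.

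None of the host genes of the RNAs that rose passed the test upward. In dual females the log2 fold change of Snx5 was 0.06 (edgeR adjusted p = 0.719), of Atg16l1 0.19 (edgeR adjusted p = 0.206), of Ncl -0.01 (edgeR adjusted p = 0.958) and of 2410006H16Rik -0.27 (edgeR adjusted p = 0.206). Rps3, host of Snord15a, fell (-0.35, edgeR adjusted p = 0.0202). Over the 33 host genes of 38 tested RNAs, 0 rose and 8 fell in dual females, beside 9.34% and 5.64% of all genes. Over both sexes 0 host genes rose and 2 fell, beside 2.72% and 0.641% of all genes. Most of these RNAs have a protein-coding host, and a smaller share of protein-coding genes rose than of all genes. Among protein-coding genes fewer rose than fell, both in dual females and over both sexes. The shares of all genes are thus not a matched background for the hosts. Whether hosts differed from other protein-coding genes was not tested. The difference between an RNA and its host was not tested. The 7 RNAs without an annotated host had a median log2 fold change of 0.31 in dual females and the 38 with a host 0.44. Of these RNAs, 0 of 7 and 6 of 38 passed. In dual males the medians were 0.72 and 0.42.

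**Figure D5:**
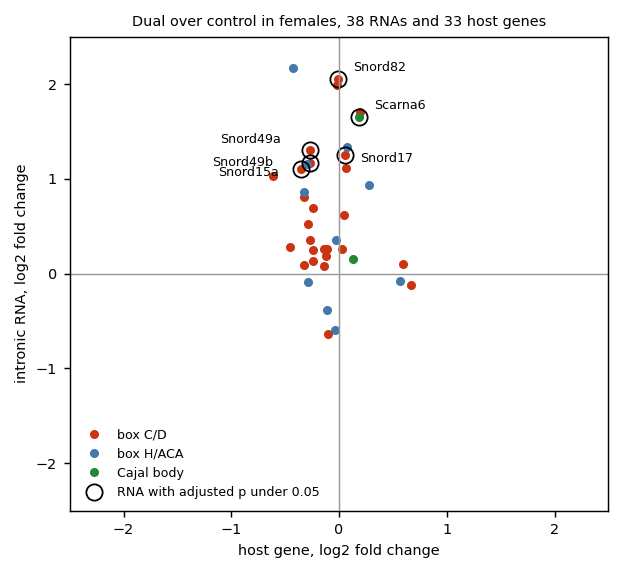
Log2 fold change of each intronic RNA (vertical axis) and of its host gene (horizontal axis) for dual exposure over control in females; each point is an RNA, coloured by class, and rings mark RNAs with an adjusted p under 0.05. The 6 ringed RNAs lie between 1.10 and 2.06 on the vertical axis, while their hosts lie between -0.35 and 0.19.

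Of the listed genes for proteins of the same particles, Nhp2 and Ruvbl1 passed in dual females, where 15% of all genes passed, and none passed for dual exposure over both sexes, where 3.36% did. Of the 5 listed box C/D core proteins (among them fibrillarin, Fbl, and Nop58), 0 passed for dual exposure over both sexes or in either sex, and Snu13 in females had the smallest p (-0.29, edgeR adjusted p = 0.0673). Of the 4 box H/ACA core proteins, Nhp2 fell in dual females (-0.45 ± 0.14, edgeR adjusted p = 0.0359) and none passed over both sexes, where Nhp2 was at -0.21 (edgeR adjusted p = 0.254). Of 13 measured assembly factors, Ruvbl1, an ATPase of particle assembly, fell in dual females (-0.34 ± 0.10, edgeR adjusted p = 0.0257) and Ruvbl2 had -0.34 (edgeR adjusted p = 0.0534). None of the 10 Cajal body protein genes passed, and Lsm10 was lowest in p (-0.46 in females, edgeR adjusted p = 0.0765).

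Some other small RNAs also rose. Of 6 tested from a list of them, 4 rose with dual exposure, beside 2.72% of all genes: the Y RNAs Rny3 (2.19 ± 0.22, edgeR adjusted p = 0.000219) and Rny1 (1.51 ± 0.27, edgeR adjusted p = 0.00534), the minor spliceosomal RNA Rnu12 (2.01 ± 0.31, edgeR adjusted p = 0.0024) and the neuronal RNA Bc1 (1.29 ± 0.15, edgeR adjusted p = 0.000347). Rny3 was at 54.1 and 81.3 CPM in male dual and 62.2 and 73.4 CPM in female dual libraries, against 19.3 and 40.6 CPM in male control and 5.13 and 9.55 CPM in female control libraries. Bc1 was at 50.4 and 51.5 CPM in male dual and 3.78 and 4.21 CPM in female dual libraries, against 35.5 and 40.2 CPM in male control and 0.634 and 1.16 CPM in female control libraries, and the male paternal and maternal libraries (52.0 to 62.2 CPM) were above the male dual ones. The TEC and sense-intronic share given above was also raised in the female dual libraries, and in males it was 0.511% and 0.365% with dual exposure and 0.429% and 0.534% in controls. With that share as a covariate the log2 fold changes were 0.72 for Snord17, 1.37 for Scarna6 and 1.07 for Snord15a, with an adjusted p = 0.986 for each, and 0 genes of the whole table passed. The part of the share and of the other small RNAs in the rise of these snoRNAs was not tested, and in females the share and dual exposure cannot be told apart.

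Several abundant RNAs gave no call in any comparison. Scarna9, in an intron of the centrosomal gene Cep295, was at 5.89 and 8.34 CPM in male dual and 10.3 and 9.20 CPM in female dual libraries, against 8.28 and 6.91 CPM in male control and 7.87 and 9.64 CPM in female control libraries. The groups overlapped (0.02 ± 0.13, edgeR adjusted p = 0.945). Scarna17, which has no host, was at 4.09 and 1.99 CPM in male dual and 3.78 and 2.99 CPM in female dual libraries, against 1.52 and 2.24 CPM in male control and 2.26 and 2.23 CPM in female control libraries. Only male dual replicate 2 fell within the control range (0.66 ± 0.26, edgeR adjusted p = 0.173). Snord104, also without a host, was at 3.71 and 4.90 CPM in male dual and 4.04 and 2.60 CPM in female dual libraries, against 2.95 and 3.57 CPM in male control and 2.75 and 3.47 CPM in female control libraries. Its female dual libraries lay on either side of the female controls (0.25 ± 0.18, edgeR adjusted p = 0.477). Snord91a, hosted by the ribosome assembly gene Tsr1, was higher in dual males (2.05 and 2.60 CPM, against 1.24 and 1.73 CPM) and lower in dual females (1.01 and 1.35 CPM, against 2.26 and 1.42 CPM). Its effects in the 2 sexes differed by 1.29 ± 0.50, which did not pass (edgeR adjusted p = 0.156). Snord83b, from the ribosomal protein gene Rpl3, had 0.50 ± 0.36, and 1 library, female dual replicate 1, was at 2.80 CPM.

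Among the other Snora RNAs, Snora17 had the highest summed count after Snora78, followed by 313 for Snora30, 284 for Snora57, 264 for Snora31, 203 for Snora23, 176 for Snora47, 154 for Snora41, 145 for Snora21 and 131 for Snora62. Snora17, without a host, was at 1.15 and 1.53 CPM in male dual and 1.92 and 1.64 CPM in female dual libraries, against 1.28 and 1.04 CPM in male control and 1.51 and 1.36 CPM in female control libraries (0.25 ± 0.30). Snora30 was at 0.960 and 1.45 CPM in male dual and 1.37 and 0.891 CPM in female dual libraries, against 0.619 and 0.691 CPM in male control and 0.513 and 0.666 CPM in female control libraries (0.90 ± 0.36, edgeR adjusted p = 0.177). Snora17 overlapped between the groups and Snora30 did not. RNAs from 1 host were also set side by side, and differences between them were not tested. The 3 RNAs of this set within Rpl13a, a ribosomal protein gene, had 0.70 ± 0.40 (Snord32a), 0.85 ± 0.59 (Snord34) and 0.55 ± 0.65 (Snord35a) with dual exposure. Snord65, beside Snord49a and Snord49b in 2410006H16Rik, had 0.69 ± 0.48. None of these passed.

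With paternal exposure 0 of 45 RNAs passed, and 0% of all genes did, and DESeq2 called 0. An unadjusted edgeR p under 0.05 was found for 6 of 45 RNAs, beside 1821 of 21543 genes tested. Scarna6 (0.64 ± 0.19, edgeR adjusted p = 0.413), Snord72 (1.56 ± 0.50, edgeR adjusted p = 0.441) and Snord15a had the smallest p-values with higher levels. Snord72 was at 0.521 and 0.845 CPM in male paternal and 0.576 and 0.624 CPM in female paternal libraries, against 0.285 and 0.230 CPM in male control and 0.211 and 0.145 CPM in female control libraries. The groups did not overlap, which held for 3 of 45 RNAs (Snord72, Scarna17 and Snord89) and for 1.23% of all genes, while 0 RNAs and 1.74% of all genes had every paternal library below every control. Within the sexes Scarna6 had 1.03 ± 0.26 in paternal females (edgeR adjusted p = 0.278) and 0.25 ± 0.27 in paternal males. Lower values of smallest p were those of Snord73a (-1.01 ± 0.62), Snord7 (-0.56 ± 0.56) and Snord13 (-0.32 ± 0.40). Medians were 0.26 over Snord, 0.20 over Snora and 0.36 over Scarna RNAs, beside -0.01 over all genes. Without the filter on low counts 2 RNAs passed in edgeR, Scarna6 (0.63, adjusted p = 0.0396) and Snord15a (0.73, adjusted p = 0.0446). The share of all genes that passed in that fit is not given here.

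With maternal exposure 0 of 45 RNAs passed, again with 0% of all genes, and DESeq2 called 0. An unadjusted edgeR p under 0.05 was found for 817 of 21543 genes tested and for 1 of the 45 RNAs. That RNA was Snord72 (1.37 ± 0.50, edgeR adjusted p = 0.998), followed among higher values by Snora62 (1.09 ± 0.62) and Snora78 (0.40 ± 0.23). Every maternal library lay above every control for 3 of 45 RNAs (Snora41, Snord104 and Snord72), beside 0.678% of all genes, and below for 0, beside 0.91%. Scarna9 (-0.24 ± 0.13), Snord61 (-1.71 ± 1.12) and Snord65 (-0.59 ± 0.52) had the smallest p-values with lower levels. The 2 sexes differed in direction for Snora78, whose host is Snhg9. It was at 4.33 and 2.51 CPM in male maternal libraries, against 1.19 and 1.32 CPM in male controls, and at 1.88 and 2.02 CPM in female maternal libraries, against 2.53 and 3.53 CPM in female controls. Thus maternal males were above and maternal females below their controls without overlap, a male minus female effect of 2.08 ± 0.46 that did not pass (edgeR adjusted p = 0.418). The Snora median was 0.79 in males and -0.10 in females.

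Paternal, maternal and dual exposure share the same control libraries, so their values are set side by side only. Non-additivity is how far the dual effect departs from both single effects added together. It passed for 0 of 45 RNAs and for 4.21% of all genes. An unadjusted edgeR p under 0.05 was found for 5 of 45 RNAs, beside 4223 of 21543 genes tested. Snord72 had -2.36 ± 0.70 (edgeR adjusted p = 0.0683) and Snord17 0.65 ± 0.22 (edgeR adjusted p = 0.101). Snord17 had 0.30 with paternal, 0.16 with maternal and 1.11 with dual exposure, whereas Snord72 had 1.56, 1.37 and 0.57.

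Between the sexes 2 of 45 RNAs were higher in males and 0 lower, where 0.877% of all genes passed (0.404% higher and 0.473% lower). Scarna6 was at 4.90 to 9.88 CPM in 8 male libraries (median 7.06) and at 2.03 to 8.13 CPM in 8 female libraries (median 3.42), 0.82 ± 0.13 on the log2 scale (edgeR adjusted p = 0.00323). Snord49b differed by 1.05 ± 0.20 (edgeR adjusted p = 0.0129), and its call was lost without male control replicate 2 (0.93, adjusted p = 0.0532), male dual replicate 2 (0.93, adjusted p = 0.0539) or female maternal replicate 2 (0.98, adjusted p = 0.0511). Male and female ranges overlapped for both. For Scarna6 both female dual libraries and female paternal replicate 2 (6.09 CPM) were above the lowest male library, and for Snord49b both female dual libraries were. Snora23 (1.01 ± 0.29, edgeR adjusted p = 0.134), Snord17 (0.35 ± 0.11) and Snord87 (1.05 ± 0.41) came next. Among lower values Snord61, from an intron of the X-linked Rbmx, had 0 to 6 counts in male and 6 to 18 counts in female libraries (-2.11 ± 0.58, edgeR adjusted p = 0.124). Snord55 (-0.59 ± 0.33), Snord7 (-0.61 ± 0.41) and Snord73a (-0.63 ± 0.44) did not pass, and Snord59a was low in counts throughout. Rny3, Rny1, Rnu12 and Bc1 were also higher in males, Bc1 by 4.64 ± 0.10. Library depth and sex cannot be told apart here. Other features also went with sex. In male libraries mt-Rnr1 was at 235 to 12342 CPM and in female libraries at 8.28 to 32.8 CPM. Bc1 was at 35.5 to 62.2 CPM in male and 0.634 to 4.21 CPM in female libraries. The part of these features in the differences between the sexes was not tested, and they cannot be told apart from sex.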

How the data were processed

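Total RNA of mouse fetal cortex (gestational day 16) was sequenced in 16 libraries. Libraries were made with a TruSeq total RNA kit, per the labels. The authors deposited raw counts per gene ID, 1 table per library. Reads were trimmed, aligned and counted by a chain that names Trimmomatic, STAR, featureCounts and the build GRCm39 (mm39), per the submitters' processing notes. Tool versions, annotation release, strandedness and the handling of multi-mapping reads are not stated there, so values of overlapping RNAs and of close sequence copies are uncertain.

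Symbols were matched by ID for 52083 of 55359 IDs. Host genes, exon overlap and sequences came from GENCODE M21 on GRCm38, another build, so no coordinates are given. Part of the neocortex marker list is not reported here. The RNAs and gene lists were chosen with earlier results of these data known.

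Counts were analysed in R 4.3.3 with edgeR 4.0.16: filterByExpr over the group factor, at a minimum count of 10 and a minimum total of 15, left 21543 genes, scaled by TMM and tested two-sided (glmQLFit, glmQLFTest) in 1 fit of 8 group means with 8 residual degrees of freedom. The threshold was an adjusted p of 0.05. CPM were computed from the counts with TMM-scaled library sizes, and CPM per 100 bases with GENCODE lengths. The fit was tested on simulated data with changes planted only in genes above a minimum level. It does not show how well changes in RNAs below that level are recovered. Replicates differed by more than counting noise in all 8 groups (median squared difference 1.58 to 4.63, against 0.455 for noise alone). The labels' replicate numbers did not pair the libraries.

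Named RNAs were, by rule, the most counted of each class, every RNA that passed (up to 10 per direction), the 3 of smallest p per direction where fewer than 3 passed, 5 per direction between the sexes, and those next to the limit of 50. Pathway genes named were the 2 of smallest p per list. Snora57, the RNAs of the host Rpl13a and Snord65 were also chosen after their values were seen. Alternatives were DESeq2 1.42.0, its size factors, leaving out the filter, a block for the replicate number, scaling by protein-coding genes, the TEC and sense-intronic share as a covariate, a fit of the compared groups alone, a summed count of at least 200 and leaving out each library. Dropping both female dual libraries was added after seeing the data.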

Additional observations from a re-analysis of the deposited data

Results flagged for a closer look

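Groups were flagged by a cut-off that chance reaches in about 1 in 20 groups of independent, normally distributed values. The groups here mix exposures or sexes and reuse the same libraries, so that rate may not hold. Of 162 groups of 4 or 8 libraries checked, 10 held a library set apart from the others by a wide gap. Female dual replicate 1 held 3 of them among the 8 female libraries: the Scarna sum was 236 CPM there and 196 to 215 CPM in the others, Snord83b was 2.80 CPM and otherwise 0.672 to 1.30 CPM, and Snora62 was 1.17 CPM and otherwise 0.145 to 0.323 CPM. In male dual replicate 2, Snord13 was 2.68 CPM and 0.460 to 1.28 CPM in the other males, and Snora31 was 1.45 CPM and 0.423 to 0.448 CPM in the other dual libraries. Snora62 was 1.10 CPM in male maternal replicate 1 and 0 to 0.418 CPM in the other males. Snora41 was 0.921 CPM in female paternal replicate 2 and 0.228 to 0.441 CPM in the other females. Among the 4 controls, male control replicate 2 was low for Scarna2 (169 CPM, otherwise 193 to 196 CPM) and Snord13 (0.460 CPM, otherwise 0.845 to 0.868 CPM), and male control replicate 1 was low for Scarna17 (1.52 CPM, otherwise 2.23 to 2.26 CPM).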

How the results depend on the processing

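Counts of RNAs that passed kept within 1.5 times under DESeq2, its size factors, protein-coding scaling and, for males, without both female dual libraries. The limit of 200 could not change these counts. It keeps the same fit, and every RNA that passed was above it (lowest Snord82, with 425 counts). Without the filter they became 2 for paternal exposure (1 in males, 1 in females), 1 for maternal exposure in males and for its sex difference, 1 for dual exposure in males and 1 (lower) for non-additivity. Shares of all genes that passed without the filter, in the compared groups alone or with 1 library left out are not given here. With the TEC and sense-intronic share as a covariate they became 0 for dual exposure, 0 in dual females and 0 between the sexes, and Snord59a between the sexes turned to 0.30. The compared groups alone gave 2 in dual females and ended the pooled call of Snord15a (adjusted p = 0.0745). The cause was not tested. Leaving out 1 library gave 2 to 4 for dual exposure, 0 to 1 in dual males, 2 to 6 in dual females, 0 to 1 for its sex difference, 0 to 1 for non-additivity and 1 to 2 between the sexes. Uncalled values that changed sign were Snord61 with maternal exposure without male control replicate 1 (0.038, range over omissions -2.13 to 0.038) and Scarna2 with dual exposure without male control replicate 1 (0.0091) or female dual replicate 2 (0.012; range -0.11 to 0.012). No fit of the compared groups alone exists for non-additivity and sex, which use all groups.

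Replicate numbers did not pair the libraries: over 28 pairs of groups the correlation of same-numbered deviations was -0.21 to 0.25 (median 0.00), with 2 pairs above 0.1. With the number as a block 3 RNAs passed for dual exposure and 6 in dual females, and no count moved.

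Most RNAs had under 1 CPM, so small changes were not detectable at this depth, and each group of sex and exposure rests on 2 libraries.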
